A study of Vitis vinifera with 6 samples.

Results

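The genes of sucrose cleavage and sugar transport described here are 9 of the 31843 genes in the count table: the vacuolar invertases GIN1 (VIT_216s0022g00670) and GIN2 (VIT_202s0154g00090), the sucrose synthases VIT_211s0016g00470, VIT_207s0005g00750 and VIT_205s0077g01930, the sucrose transporters SUC27 (VIT_218s0076g00250), SUC11 (VIT_218s0001g08210) and SUC12 (VIT_201s0026g01960), and a transporter of the vacuolar membrane, VIT_218s0122g00850, listed under the name TMT2. They were taken by identifier from a fixed list, not by a cut-off on their counts. The list was chosen with earlier results of these data known. All 9 were present and passed the filter on low counts. The study compared embryogenic callus (EC) with leaf in the grapevine cultivar Chardonnay, with 3 RNA libraries per tissue. EC is a mass of proliferating, dedifferentiated cells that can form embryos. It was raised from anthers, kept on solid medium in the dark and harvested 4 months after callus first formed, and each sample pooled cultures from 3 Petri dishes. Each leaf sample pooled 5 young leaves from the vines that had supplied the anthers. Tissue, light and culture medium therefore differed together between the groups and cannot be told apart.

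Sucrose is the main sugar that plants move between organs, and a cell that receives it must split it before use. Invertases split it with water into glucose and fructose, and the vacuolar enzymes work inside the large storage compartment of the cell. Sucrose synthases instead split it with the nucleotide UDP, in a reversible reaction whose UDP-glucose serves cell wall and starch synthesis. Sucrose transporters of the SUC family carry sucrose together with protons across membranes, and TMT proteins, known best from Arabidopsis, bring monosaccharides into the vacuole. In grapevine these families are known mostly for sugar accumulation in the berry. The names of the invertases and transporters come from the list. The reference gene table used here (RefSeq, ASM3070453v1) matched 0 of the count table's identifiers, so its symbols could be compared by name and chromosome only. SUC27 and SUC11 had a RefSeq symbol on the chromosome given in the identifier, and SUC12 had a pair of them there, VVSUC12 and SUC12. The symbol TMT2 lay on another chromosome than that of VIT_218s0122g00850, on whose chromosome RefSeq has HT6, with the synonym TMT1. That gene is therefore given by its identifier below.

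Counted reads ranged from 13123072 to 24209752 per library, the lowest being leaf replicate 3. That library stood apart from the rest of its tissue: across all tested features its log2 levels had a Pearson's r of 0.829 and 0.815 with leaf replicates 1 and 2, which had an r of 0.991 with each other, and its TMM factor (the scaling factor of the trimmed mean of M-values) was 0.658 against 0.961 and 0.974. Features are not independent replicates, so these r carry no test. Levels below are counts per 1000000 of TMM-scaled library size (CPM). They are not divided by gene length, so a gene is compared between libraries and not with another gene. The smallest level that 3 counts give was 0.348 CPM in leaf replicate 3 and 0.104 to 0.141 CPM in the others. Apart from VIT_205s0077g01930 in leaf, each of the 9 genes had 71 to 48788 counts per library, and the exact 95% binomial interval of such a value spanned from 0.887% to 24.0% of it on either side, for counting error only. Leaf and EC marker genes were not examined because no name could be paired with their identifiers. In whole tissue, fewer cells of a type and less RNA per cell cannot be told apart.

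The clearest differences lay in the sucrose synthase VIT_211s0016g00470 and in SUC27. They fell about 9.10-fold and 8.01-fold from leaf to EC. As a description only, the sucrose synthase VIT_205s0077g01930 had 17 counts in all leaf libraries together and 11117 in EC. The vacuolar invertases GIN1 and GIN2 had lower levels in EC, by 15.2-fold and 9.95-fold, but with wide intervals and a leaf replicate 3 that lay near EC. SUC11 was 1.88-fold higher in EC. VIT_207s0005g00750, SUC12 and VIT_218s0122g00850 did not pass the test. The quasi-likelihood test of edgeR was run on all 21550 features that passed the filter (genes and families of transposable elements, TE), with p-values adjusted over all of them by the Benjamini-Hochberg method. Of the 9 genes 6 had an adjusted p under 0.05, which is near the 54.1% of all features that passed. The level was higher in leaf for 4 of them (29.2% of all features) and higher in EC for 2 (24.9%), of which VIT_205s0077g01930 had passed the filter on low counts through EC alone. With a change of at least 2-fold as well, 5 of 9 passed against 42.3% of all features. Without leaf replicate 3, 8 of 9 passed against 79.8% of features, and 5 against 51% with a 2-fold change. The median size of the log2 fold change was 3.00 for the 9 genes and 1.02 for all features. This is a description only, as the 9 genes were chosen with earlier results of these data known.

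**Figure D1:**
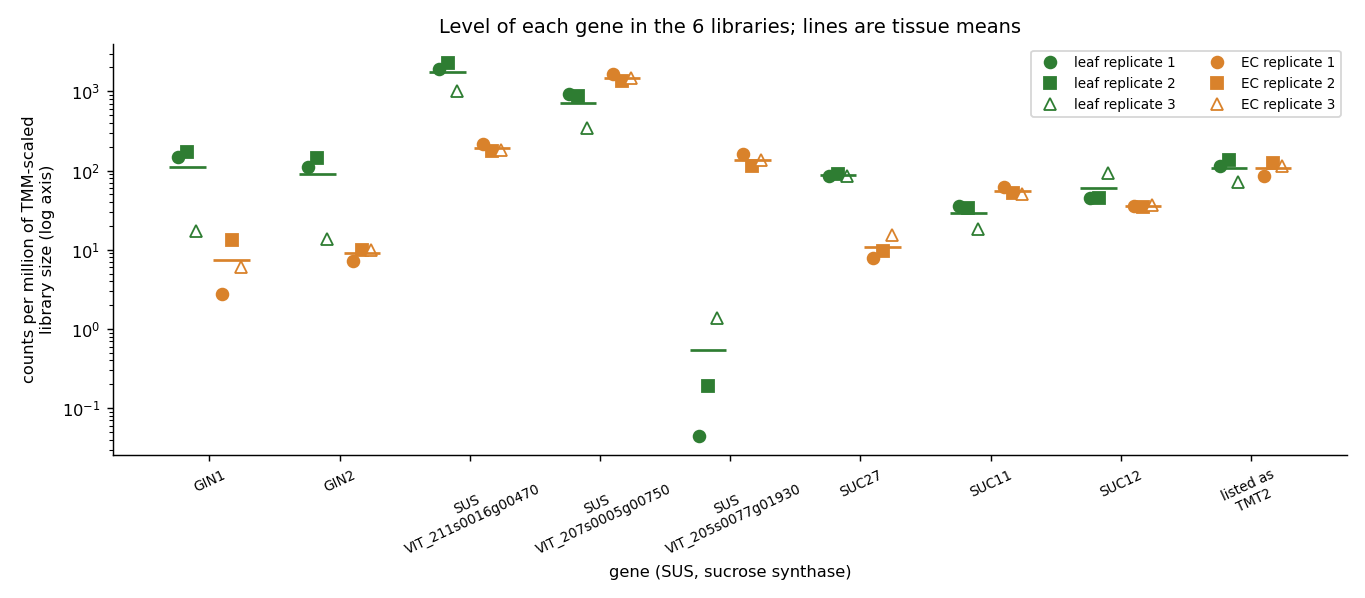
Level of each gene in CPM, on a log axis, in the 3 leaf libraries (green) and the 3 EC libraries (orange), with lines at the tissue means. Leaf replicate 3 (open green triangle) sits at 17.2 and 13.7 for GIN1 and GIN2, far below the other leaf libraries and just above EC, whereas for SUC27 the leaf libraries lie together at 85.8 to 89.8.

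Among the sucrose synthases, VIT_211s0016g00470 was higher in leaf. It stood at 1920, 2299 and 1018 CPM in leaf replicates 1, 2 and 3 and at 219, 177 and 179 CPM in the EC replicates. The lowest leaf library was thus well above the highest EC library. The mean went from 1746 ± 658 to 192 ± 23.5 CPM (SD, n = 3), with a log2 fold change of −3.19 (standard error 0.38, adjusted p = 0.00164, edgeR). The call was kept in each of the 15 alternative analyses tried, where the log2 fold change ranged from −3.46 to −2.82.

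VIT_205s0077g01930 was nearly without counts in leaf and well counted in EC. It had 1, 4 and 12 counts in leaf replicates 1, 2 and 3, which is 0.0442, 0.189 and 1.39 CPM, and 4166, 3007 and 3944 counts in the EC replicates, which is 161, 114 and 137 CPM. It passed the filter on low counts through EC alone. The count in leaf replicate 1 was under the floor of 3 counts. The 12 counts of leaf replicate 3, the library with the fewest counted reads, made up most of the leaf total. The ratio of the pooled levels, EC over leaf, was 423 (95% Poisson interval 264 to 726, counting error only). The fitted log2 fold change was 8.38 (standard error 1.09, edgeR). Because the gene was tested only through the tissue where it is high, its call is given as a description and not as support. The size of the change rests on a few leaf counts: without leaf replicate 3 the pooled ratio was 1201 (515 to 3701) and the log2 fold change 10.2, and without leaf replicate 1 the latter was 7.65.

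The third sucrose synthase, VIT_207s0005g00750, was well counted in both tissues. Its levels were 923, 869 and 345 CPM in leaf and 1631, 1344 and 1480 CPM in EC. The lowest EC library was above the highest leaf library. On this scale the tissues did not overlap for 8 of the 9 genes and for 69.6% of all features. The 8 include VIT_205s0077g01930, which passed the filter on low counts through EC alone. The log2 fold change of VIT_207s0005g00750, 1.06 (95% interval 0.03 to 2.09), had an adjusted p of 0.0768 (edgeR). The call depended on leaf replicate 3, the lowest of the 6, and on the test used: without that library the log2 fold change was 0.75 and the adjusted p 8.53e-04 (edgeR), and DESeq2 with all libraries gave 0.0332.

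Within a library, the ratio between genes does not depend on the scaling, so it shows a change in make-up without the TMM factors. In leaf, VIT_211s0016g00470 took 67.5%, 72.6% and 74.6% of the counts on the 3 sucrose synthases, and in EC 10.9%, 10.8% and 9.97%. VIT_207s0005g00750 took 25.3% to 32.5% in leaf and 81.1% to 82.4% in EC, and VIT_205s0077g01930 at most 0.102% in leaf and 6.96% to 7.99% in EC. The shares in the leaf libraries did not overlap those in the EC libraries for any of the 3 genes. These are not separate observations, since the shares of a class add up to the whole and a fall in one raises the others. VIT_205s0077g01930 also passed the filter on low counts through EC alone. How often such shares separate among other genes was not examined. Leaf replicate 3, with 11757 counts on the sucrose synthases against 64334 and 67226 in the other leaf libraries, had a make-up like theirs. The log2 ratio of VIT_211s0016g00470 to VIT_207s0005g00750 had a leaf mean of 1.34 ± 0.26 and an EC mean of −2.95 ± 0.08 (SD, n = 3), a 19.6-fold shift (p = 0.1 in a two-sided exact permutation test, the lowest possible with 3 libraries per tissue, and adjusted p = 0.117 over 7 pairs). The ratios of VIT_211s0016g00470 and VIT_207s0005g00750 to VIT_205s0077g01930 fell 3721-fold and 190-fold. They are among the 7 pairs, but are given as a description, since VIT_205s0077g01930 passed the filter on low counts through EC alone. Their size rests on its few leaf counts: the log2 shifts were −11.9 and −7.57, and −13.3 and −9.15 without leaf replicate 3. The sum of the 3 genes was 2459 ± 961 CPM in leaf and 1814 ± 188 CPM in EC (SD, n = 3). The ratio of EC to leaf was 0.738 with overlapping libraries. Levels are not divided by gene length, so this ratio also depends on the lengths of the genes whose shares changed.

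**Figure D2:**
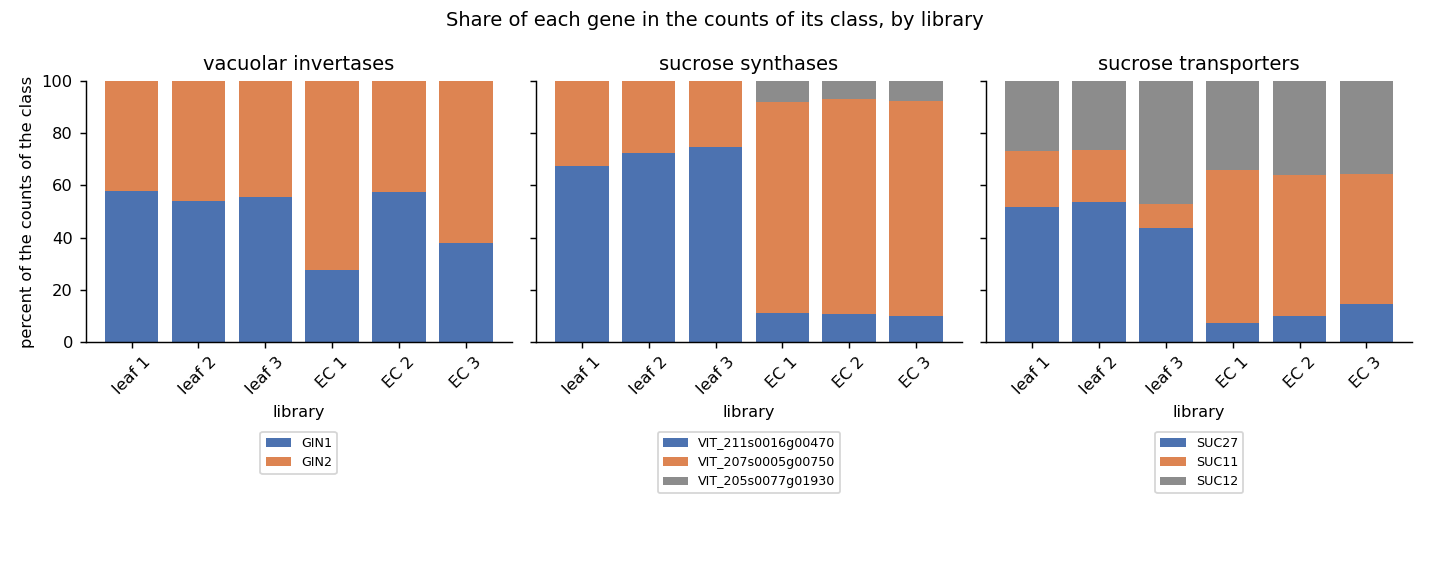
Share of each gene in the counts of its class, in percent, for the vacuolar invertases, the sucrose synthases and the sucrose transporters in each of the 6 libraries. The sucrose synthase bars change from mostly VIT_211s0016g00470 in leaf (67.5% to 74.6%) to mostly VIT_207s0005g00750 in EC (81.1% to 82.4%). Shares are of counts, not corrected for gene length.

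Of the transporters, SUC27 had the steadiest leaf level on the TMM scale. It stood at 85.9, 89.8 and 85.8 CPM in leaf replicates 1, 2 and 3 and at 7.79, 9.69 and 15.1 CPM in EC. Leaf replicate 3 did not stand apart for this gene, and the tissues were well separated. The log2 fold change was −3.00 (standard error 0.28, adjusted p = 8.93e-04, edgeR), with the call kept in all 15 alternatives at −3.29 to −2.56.

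SUC11 moved the other way. Its levels were 35.9, 33.3 and 18.2 CPM in leaf and 62.2, 51.8 and 51.2 CPM in EC, without overlap. The log2 fold change of 0.91 (95% interval 0.21 to 1.62) had an adjusted p of 0.0382 (edgeR). The change was below 2-fold, and the call was lost without leaf replicate 2 or without any one of the EC replicates (adjusted p from 0.0668 to 0.109, edgeR). Calls over all features were fewer in these fits too, at 7795 to 10102 against 11655 with all libraries.

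SUC12 did not pass the test. It stood at 44.7, 44.4 and 92.6 CPM in leaf and at 36.1, 34.4 and 37.0 CPM in EC. Here leaf replicate 3 was the highest library, 2.08 times the mean of the other leaf libraries. The log2 fold change was −0.75 (95% interval −1.56 to 0.05, adjusted p = 0.0989, edgeR). Without leaf replicate 3 it was smaller, −0.30, but its standard error fell to 0.07 and the adjusted p to 0.00672 (edgeR). Over library sizes alone the tissues overlapped.

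The make-up of the SUC counts changed as well. SUC27 held 43.6% to 53.6% of them in leaf and 7.34% to 14.6% in EC, and SUC11 9.27% to 21.6% in leaf and 49.5% to 58.6% in EC. SUC12 overlapped between the tissues, with 26.9%, 26.5% and 47.1% in leaf replicates 1, 2 and 3 and 34.0% to 35.9% in EC. Leaf replicate 3 thus had another make-up than the other leaf libraries, with SUC11 at 9.27% against 21.6% and 19.9%. These shares are not separate observations either, and how often such shares separate among other genes was not examined. The log2 ratio of SUC27 to SUC11 fell from 1.64 ± 0.52 to −2.39 ± 0.62 (SD, n = 3), a 16.3-fold shift (p = 0.1 in the exact permutation test, adjusted p = 0.117 over 7 pairs). The shift in SUC27 to SUC12 was 5.24-fold, and that in SUC11 to SUC12, in favour of SUC11 in EC, was 3.11-fold, with the same p. The last of these was smaller without leaf replicate 3, at 0.98 on the log2 scale against 1.64 with all libraries. The sum of the SUC genes was 177 ± 17.1 CPM in leaf and 102 ± 5.30 CPM in EC (SD, n = 3), and EC stood at 0.576 of leaf. This ratio too depends on gene lengths, which were not corrected for.

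VIT_218s0122g00850, the transporter listed as TMT2, had like levels in the tissues. It stood at 114, 138 and 72.1 CPM in leaf and at 84.5, 124 and 115 CPM in EC. The libraries overlapped, and the log2 fold change was −0.0022 (95% interval −0.72 to 0.71, adjusted p = 0.995, edgeR). The interval therefore leaves room for a change of up to 1.64-fold in either direction, and the sign of the estimate depended on the scaling, with 0.39 over library sizes alone. No other of the 9 genes changed its sign in any alternative.

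**Figure D3:**
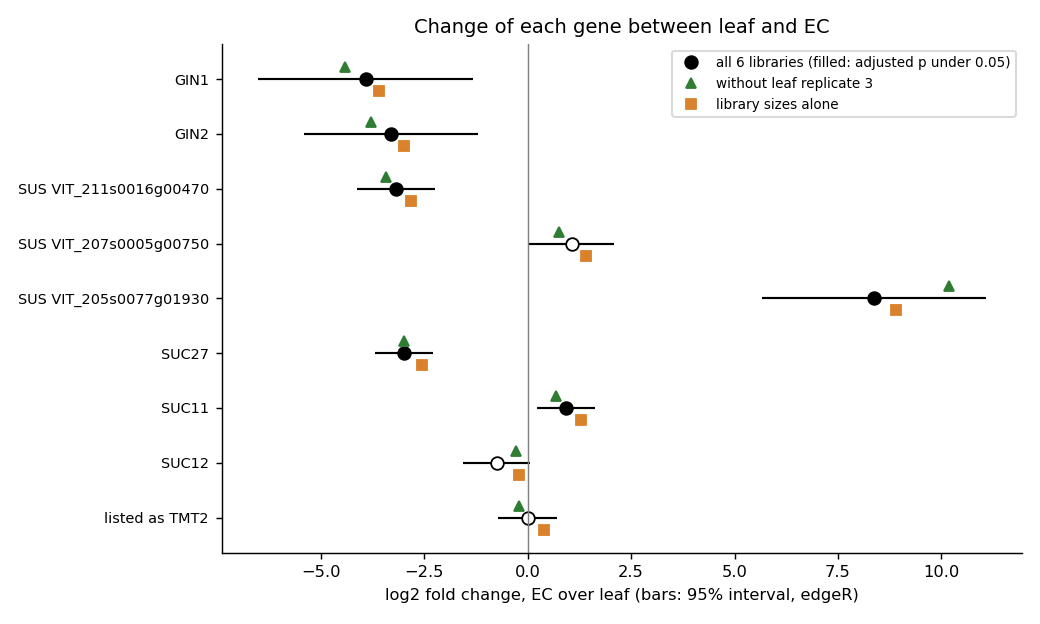
Log2 fold change of each gene, EC over leaf, with its 95% interval from edgeR (black, filled where the adjusted p was under 0.05), beside the estimate without leaf replicate 3 (green triangle) and the estimate with library sizes alone (orange square). The intervals of GIN1 and GIN2 are among the widest, from −6.53 to −1.32 and from −5.42 to −1.21, and only the gene listed as TMT2 has estimates on both sides of 0.

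Both vacuolar invertases were far lower in leaf replicate 3 than in the other leaf libraries. GIN1 stood at 150, 169 and 17.2 CPM in leaf replicates 1, 2 and 3 and at 2.74, 13.4 and 6.01 CPM in EC. GIN2 stood at 110, 144 and 13.7 CPM in leaf and at 7.22, 9.88 and 9.82 CPM in EC. For both genes the lowest leaf library was above the highest EC library on this scale, but leaf replicate 3 was nearer to EC than to the rest of its tissue. Over library sizes alone the tissues overlapped: in reads per 1000000 counted reads, GIN1 was at 11.3 in leaf replicate 3 and 15.9 in EC replicate 2, and GIN2 at 8.99 in leaf replicate 3 and 8.28 to 11.7 in EC. On that scale 72.9% of all features had separate tissues, and 5 of the 9 genes did. The 5 include VIT_205s0077g01930, which passed the filter on low counts through EC alone.

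The log2 fold change of GIN1 was −3.92 (standard error 1.05, adjusted p = 0.0239, edgeR) and that of GIN2 −3.32 (standard error 0.85, adjusted p = 0.0209, edgeR). The calls were lost in most fits with a library left out. Calls over all features numbered 11655 with all libraries. Without any single library other than leaf replicate 3 they numbered 7795 to 10102. GIN1 did not pass without leaf replicate 1, leaf replicate 2, EC replicate 1 or EC replicate 3 (adjusted p from 0.0573 to 0.0909, edgeR), and without EC replicate 2 its log2 fold change was −4.65. GIN2 did not pass without any single library other than leaf replicate 3 (adjusted p from 0.0519 to 0.0834, edgeR). Without leaf replicate 3 both passed, at −4.42 for GIN1 (adjusted p = 4.10e-04) and −3.80 for GIN2 (adjusted p = 6.80e-06, edgeR). The invertases together were at 260, 313 and 30.9 CPM in leaf and at 9.96, 23.3 and 15.8 CPM in EC.

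The ratio of GIN1 to GIN2 covered a narrower range in leaf than in EC. GIN1 held 57.8%, 54.0% and 55.6% of their joint counts in the leaf replicates, leaf replicate 3 included, and 27.5%, 57.6% and 37.9% in the EC replicates. The log2 ratio of GIN1 to GIN2 was 0.33 ± 0.11 in leaf and −0.55 ± 0.92 in EC (SD, n = 3), and the tissues overlapped (two-sided exact permutation test, p = 0.3, adjusted p = 0.3 over 7 pairs).

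Leaf replicate 3 did not shift the 9 genes alike. On the scale of log2(CPM + 1) it lay 3.14 below the mean of leaf replicates 1 and 2 for GIN1 and 3.11 below that mean for GIN2, which was lower than in all but 2.05% and 2.13% of features. The difference was −1.04 for VIT_211s0016g00470, −1.37 for VIT_207s0005g00750, −0.89 for SUC11, −0.79 for VIT_218s0122g00850 and −0.03 for SUC27. It was 1.04 for SUC12 and 1.10 for VIT_205s0077g01930, the genes that were higher there. Leaf replicates 1 and 2 differed by at most 0.39 for any of the 9. The part that the state of this library had in the results was not tested.

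**Figure D4:**
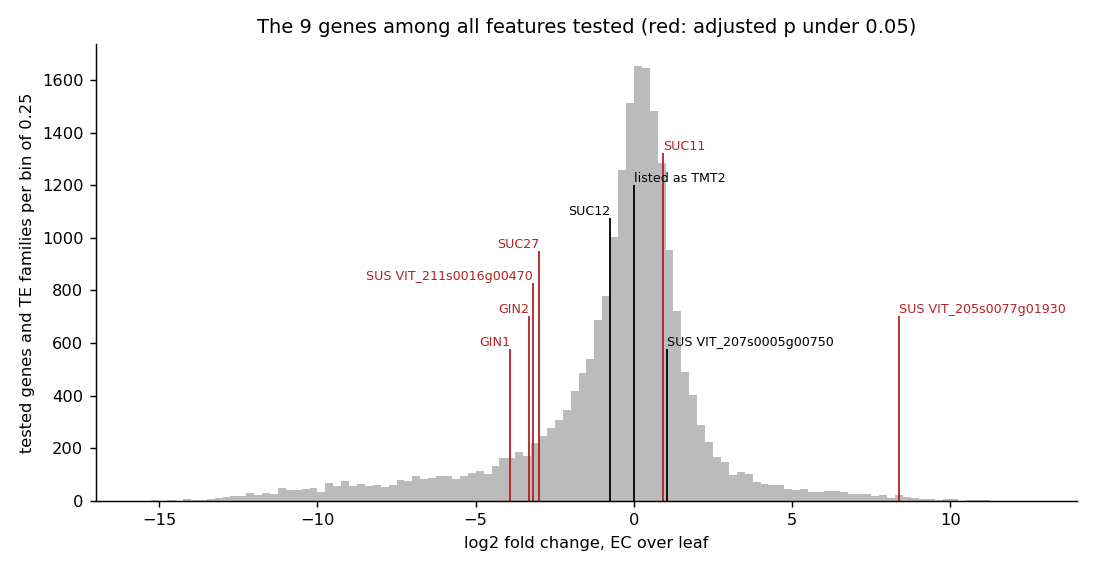
Number of tested genes and TE families by log2 fold change, EC over leaf, in bins of 0.25 (grey), with lines at the 9 genes (red where the adjusted p was under 0.05; line heights carry no value). VIT_205s0077g01930, at 8.38, is the furthest from 0 of the 9 genes, and GIN1, GIN2, VIT_211s0016g00470 and SUC27 lie together between −3.92 and −3.00.

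Across the 6 libraries, the log2 CPM of VIT_207s0005g00750 and SUC11 had a Pearson's r of 0.992, the highest among the 9 genes, and those of GIN1 and GIN2 of 0.965. Of the 21550 features tested, 682 reached an r of 0.95 with GIN1, 2728 with VIT_211s0016g00470 and 1605 with SUC11. Only 20 features did so with VIT_218s0122g00850. How many features reached the higher r of the pairs above was not counted. The features most like each gene had an r of at least 0.994. For GIN1 it was VIT_202s0025g01230, with 270, 272 and 41 counts in leaf and 48, 101 and 77 in EC. For GIN2 it was VIT_211s0016g02900, with 856, 1087 and 23 counts in leaf and 25, 43 and 40 in EC, which was low in leaf replicate 3 too. For VIT_205s0077g01930 it was VIT_208s0007g02740, with 2, 5 and 7 counts in leaf and 508, 433 and 495 in EC. For SUC12 it was VIT_204s0008g06690, which was likewise highest in leaf replicate 3, with 892 counts there and 311 to 478 in the other libraries. The r are descriptions without a test, since the libraries share their tissue and scaling.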

How the data were processed

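Ribosome-depleted RNA of 3 leaf and 3 EC samples was sequenced as stranded libraries of 100 bp read pairs on a single lane. The authors removed tRNA and rRNA reads, aligned the remainder to PN40024 (12X build) with HISAT2 and deposited raw counts, made with TEtranscripts, of TE families and of the genes in annotation V2.1. Whether counting used the strand is not given in the sources used here, so reads of a gene and an antisense partner cannot be told apart, nor could reads shared by close copies be checked. The table has 6 count columns and 0 others. Samples were grouped by title, and p-values measure the spread between these pooled samples.

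All features were tested with edgeR 4.0.16 (R 4.3.3): filterByExpr by tissue (minimum count 10, minimum total 15), TMM, robust glmQLFit and glmQLFTest, Benjamini-Hochberg adjustment. Dividing the absolute log2 fold change by the root of the F statistic gave its standard error. Ratios within a library used log2(count + 1). The script was run on simulated counts with less spread between libraries than these data and with no outlying library. That run checks the code, not how well the test suits these libraries. The 9 genes and the lists were chosen with earlier results of these data known. Lists of other sugar genes and of tissue markers, to be drawn from RefSeq descriptions, were void, as 0 identifiers matched. For each gene, the feature with the highest r was found. Alternatives were DESeq2 1.42.0, limma-voom (limma 3.58.1) with and without sample weights, edgeR with DESeq2's size factors, with library sizes alone or with TMM from features of at most 0.1% of counts, no filter, a minimum of 10 counts per library, a block by replicate number, and the removal of each library. For ratios within a library they were a pseudocount of 0.5 and the block. Figures were drawn with matplotlib 3.10.9.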

Additional observations from a re-analysis of the deposited data

How the results depend on the processing

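VIT_211s0016g00470 and SUC27 kept their direction and their call in all 15 alternatives. VIT_205s0077g01930 passed the filter through EC alone and dropped out under the minimum of 10 counts per library, so its calls say nothing about stability. With a library left out, the log2 fold change ranged from −4.65 to −3.50 for GIN1, −3.80 to −2.79 for GIN2 and 0.69 to 1.08 for SUC11. It ranged from 0.75 to 1.28 for VIT_207s0005g00750, −0.94 to −0.30 for SUC12 and −0.21 to 0.20 for the gene listed as TMT2. The number of the 9 genes that passed ranged from 3 to 8 in these fits. Over all features, 21842 to 22578 were tested and 7795 to 17989 passed. With a 2-fold change as well, 3 to 5 of the 9 genes passed, and 7050 to 11494 of all features. The gene listed as TMT2, which never passed, changed its sign over library sizes alone (0.39), with no filter (0.033), with limma-voom (0.021) and with the replicate block (0.027). GIN2 did not pass with limma-voom (−2.89). VIT_207s0005g00750 passed with DESeq2 (1.02), and it (0.72) and SUC12 (−0.32) passed with limma-voom and sample weights, where leaf replicate 3 had a weight of 0.0577. The summed SUC genes had a ratio of 0.796 over library sizes alone.

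The replicate number does not pair the libraries: the deviations of same-numbered libraries from their tissue means had r of −0.01 to 0.10. With it as a block, GIN1 (−3.64) and GIN2 (−2.88) did not pass, and 3 of the 9 genes passed with a 2-fold change, against 5 without the block. Over all features, 7866 passed with a 2-fold change, against 9123 without the block. By adjusted p alone 8858 passed, against 11655. The block changed no other call among the 9 genes.

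Over all features, the median log2 fold change was −0.04 with TMM and 0.41 with library sizes alone, so all changes shift up together on that scale, relative to which the gene listed as TMT2 is near the median. Features passing with a 2-fold change split into 3722 higher in EC and 5401 in leaf, and into 5806 and 4379 over library sizes alone. Features that passed numbered 11655, 17989 without leaf replicate 3 and 17522 with sample weights. They numbered 7795 to 10102 without any other single library. Those with a 2-fold change went from 9123 to 5553 where 10 counts were required in every library. All 7 ratios kept their direction in all alternatives, which says nothing about stability for those with VIT_205s0077g01930. The log2 shift in SUC11 to SUC12 went from 1.64 to 0.98 without leaf replicate 3. With 6 libraries the p of a ratio cannot fall under 0.1.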

Other observations

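The genes next to the 9 by order of identifier were looked at after the values of the 9 were known. Of 18 such neighbours 16 were tested, and 12 had an adjusted p under 0.05 (edgeR), against 54.1% of all features. The level was higher in EC for 4 (24.9% of all features) and higher in leaf for 8 (29.2%). The 8 include VIT_205s0077g01920, which was tested through leaf, the tissue where it is high. Some neighbours that passed had the direction of the gene beside them and some the opposite one. Both neighbours of GIN2 were lower in EC as it was, VIT_202s0154g00080 with a log2 fold change of −2.14 (adjusted p = 0.00979, edgeR) and VIT_202s0154g00100 with −0.85 (adjusted p = 0.0137, edgeR). So was VIT_211s0016g00480 beside VIT_211s0016g00470 (−1.50, adjusted p = 0.0216, edgeR), and VIT_205s0077g01940 was higher in EC like VIT_205s0077g01930 (1.12, adjusted p = 0.00169, edgeR). VIT_205s0077g01920, with 0 to 63 counts, was lower in EC (−8.97, standard error 2.27), which is given as a description only. In contrast, SUC11, higher in EC, lies next to VIT_218s0001g08230, which was lower there (−4.90, standard error 0.17, adjusted p = 1.66e-04, edgeR), and VIT_218s0001g08200 on its other side was lower as well (−4.28, adjusted p = 0.0252, edgeR). GIN1, lower in EC, lies next to VIT_216s0022g00680, which was higher there (3.71, standard error 0.46, adjusted p = 0.00186, edgeR). SUC12, at −0.75 without passing, lies next to VIT_201s0026g01950, which was lower in EC (−4.56, standard error 0.42, adjusted p = 8.38e-04, edgeR). No table used here names these neighbours.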
